A study of Caenorhabditis elegans with 3 samples.

Results

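Sphingolipid synthesis and breakdown were followed through 9 genes of Caenorhabditis elegans, chosen by name from the deposited gene tables. All 9 were listed, among 46135 genes in all. They were 2 genes for subunits of serine palmitoyltransferase (sptl-1 and sptl-3), 3 ceramide synthase genes (hyl-1, hyl-2 and lagr-1), 3 acid sphingomyelinase genes (asm-1, asm-2 and asm-3) and the sphingosine kinase gene sphk-1. The genes were picked with their levels in these libraries known, so the values given here describe them and no test was made on them.

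RNA came from whole N2 wild-type larvae, synchronized at the first larval stage, fed RNAi bacteria for 36 hours and collected at the fourth larval stage (L4). The control group, gfp(RNAi), was fed a clone against gfp, a sequence that worms lack, and the other groups, ham-3(RNAi) and swsn-2.2(RNAi), were fed clones against ham-3 and swsn-2.2, paralogs that encode accessory proteins of SWI/SNF, a complex that remodels chromatin. Each group was a single library of poly(A) RNA, so the spread between animals or cultures is unknown. The culture temperature was given as 25 °C in the series design and as 35 °C in the growth protocol. No other agent or allele was named for any group.

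Sphingolipids are built on a long-chain base that serine palmitoyltransferase makes from serine and a fatty acyl-CoA. Ceramide synthases attach a further fatty acid to give ceramide, which receives a headgroup to become sphingomyelin or a glycosylated lipid. Breakdown runs the other way: sphingomyelinases release ceramide, ceramidases release the base, and sphingosine kinase phosphorylates it before a lyase cleaves it. In C. elegans the long-chain base is a branched one that depends on monomethyl branched-chain fatty acids, and ceramide has been linked to germ cell death after irradiation and to survival without oxygen.

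Expression was given as FPKM, a fragment count scaled to transcript length and to library depth. The depth inferred from the spacing of low FPKM values was 1.97e+07 fragments for gfp(RNAi) and 3.10e+07 for each of the other libraries. The targeted gene ham-3 was at 19.3 FPKM in gfp(RNAi), 23.1 in the library labelled as ham-3(RNAi) and 31.5 in swsn-2.2(RNAi), so it was not lower in the library labelled for it. The gene swsn-2.2 was at 19.3 and 37.8 FPKM in the first 2 of these and listed at 0 in swsn-2.2(RNAi). The authors gave no test of swsn-2.2 in either comparison, as for sptl-1 below. This 0 may thus be a failed estimate and does not by itself show that swsn-2.2 RNA was lower. Every direction given below for the library labelled as ham-3(RNAi), or for swsn-2.2(RNAi), rests on its label. A value of 0 can be a failed estimate in these tables: 267 genes at 0 in gfp(RNAi) had at least 10 FPKM elsewhere, and 160 and 178 genes did so for ham-3(RNAi) and swsn-2.2(RNAi). In whole animals, fewer cells of a type and less RNA per cell cannot be told apart.

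**Figure D1:**
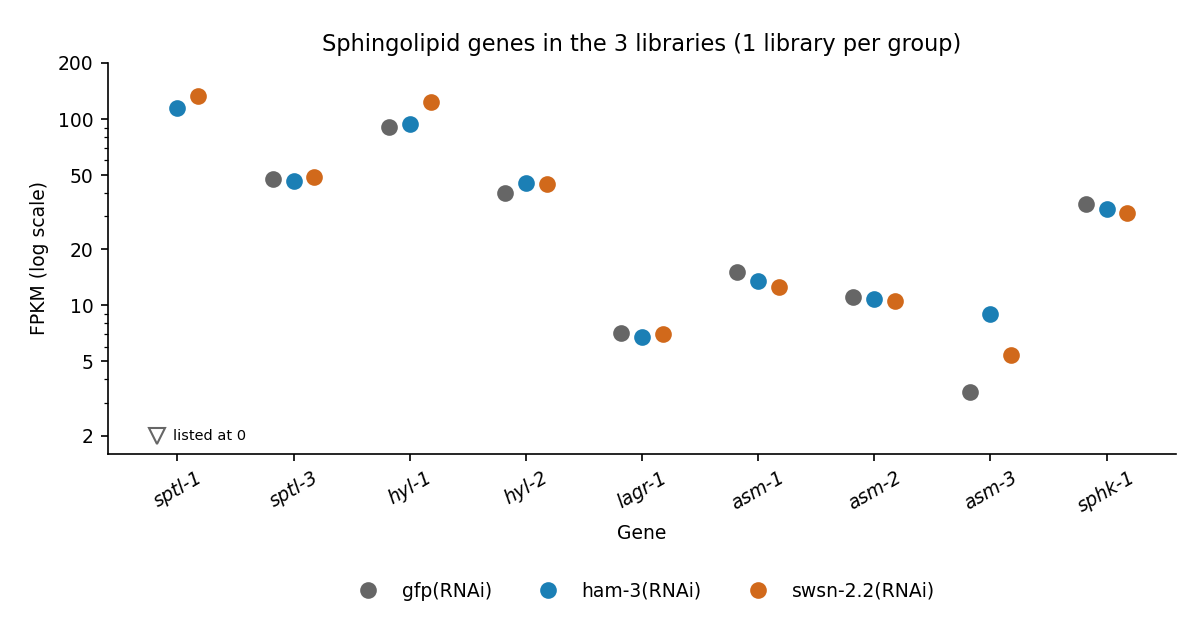
FPKM of each of the 9 sphingolipid genes (y axis, log scale) in the 3 libraries, 1 point per library. The points of asm-3 lie apart, at 3.43, 8.96 and 5.38 FPKM, those of hyl-1 separate only in swsn-2.2(RNAi) at 123 FPKM, and the open triangle marks sptl-1, listed at 0 in gfp(RNAi) and not measured at the height drawn.

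Levels in the control larvae ran from the ceramide synthase hyl-1 at 90.2 FPKM down to the sphingomyelinase asm-3 at 3.43 FPKM. The order below hyl-1 was sptl-3 (47.9 FPKM), hyl-2 (40.2), sphk-1 (35.1), asm-1 (15.2), asm-2 (11.1) and lagr-1 (7.15). Of 14428 genes at or above 1 FPKM in gfp(RNAi), 87.9% were lower than hyl-1 and 16.7% were lower than asm-3. The genes for building ceramide thus stood above those for splitting sphingomyelin, except for lagr-1. The place of sptl-1 in gfp(RNAi) could not be given, and in the other libraries it stood at the top, at 114 FPKM in the library labelled as ham-3(RNAi) and 133 in swsn-2.2(RNAi). The order of the 8 other genes in swsn-2.2(RNAi) was that of the control. In the library labelled as ham-3(RNAi) asm-3 stood above lagr-1 (8.96 and 6.78 FPKM), and the rest of the order was the same.

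The acid sphingomyelinase asm-3 differed most between libraries, as a ratio, of the 8 members above 0 in all 3. ASM enzymes cleave the phosphocholine headgroup from sphingomyelin and leave ceramide. The gene asm-3 (W03G1.7; WBcel235 chromosome IV, 520214 to 523809, minus strand, 2 annotated transcripts) was at 3.43 FPKM in gfp(RNAi), 8.96 in the library labelled as ham-3(RNAi) and 5.38 in swsn-2.2(RNAi). Both RNAi libraries were above gfp(RNAi), and the library labelled as ham-3(RNAi) was the higher of them.

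The FPKM of asm-3 was 2.61-fold that of gfp(RNAi) in the library labelled as ham-3(RNAi), a log2 FPKM ratio of 1.39 with a 95% counting interval of 1.09 to 1.69. In swsn-2.2(RNAi) it was 1.57-fold that of gfp(RNAi), a log2 FPKM ratio of 0.65 (0.34 to 0.97). In the direct comparison of the RNAi libraries, which does not use gfp(RNAi), the log2 FPKM ratio of asm-3 was 0.74 (0.52 to 0.95), higher in the library labelled as ham-3(RNAi). These intervals lie above 0 and rest on about 118, 485 and 285 inferred fragments in gfp(RNAi), ham-3(RNAi) and swsn-2.2(RNAi). They cover counting error alone and not the variation between cultures. The authors' deposited table gives asm-3 a log2 fold of 1.39 with a q-value of 7.98e-09 in the library labelled as ham-3(RNAi), and 0.65 with a q-value of 0.039 in swsn-2.2(RNAi). Both q-values compare single libraries.

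The paralogs asm-1 and asm-2 were lower than the control or near it. The gene asm-1 (B0252.2; chromosome II, 6910072 to 6912659, plus strand) was at 15.2 FPKM in gfp(RNAi), 13.5 in the library labelled as ham-3(RNAi) and 12.6 in swsn-2.2(RNAi). Both values were below the control. The log2 FPKM ratio of asm-1 to gfp(RNAi) was -0.17 (-0.34 to 0.00) in the library labelled as ham-3(RNAi) and -0.27 (-0.45 to -0.10) in swsn-2.2(RNAi). The 3′ end of asm-1 overlaps the opposite-strand gene cyn-10 by 120 bp, and whether the libraries kept strand is not given in the sources used here. The gene asm-2 (ZK455.4; chromosome X, 11321079 to 11324251, minus strand) was at 11.1, 10.8 and 10.5 FPKM in gfp(RNAi), ham-3(RNAi) and swsn-2.2(RNAi). Its intervals include 0 in both comparisons with gfp(RNAi), -0.22 to 0.15 and -0.27 to 0.11 on the log2 scale. The authors' deposited table gives p-values of 0.32 and 0.076 for asm-1, and of 0.83 and 0.59 for asm-2, in ham-3(RNAi) and swsn-2.2(RNAi).

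The summed FPKM of the acid sphingomyelinases varied less than its makeup. The sum was 29.7 FPKM in gfp(RNAi), 33 in the library labelled as ham-3(RNAi) and 28.4 in swsn-2.2(RNAi). The share of asm-3 in that sum was 11.5% in gfp(RNAi), 26.9% in the library labelled as ham-3(RNAi) and 18.9% in swsn-2.2(RNAi). The share of asm-1 was 51.1%, 40.6% and 44.2% in the same order, so asm-1 remained the largest part in each library.

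**Figure D2:**
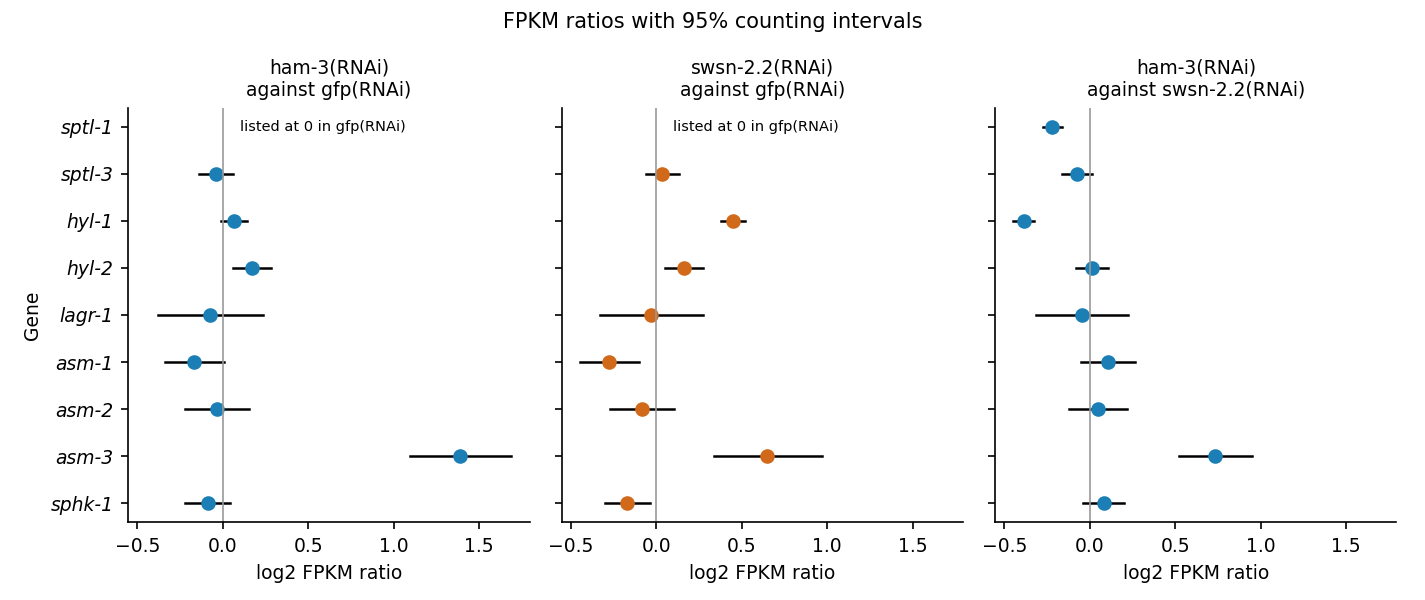
log2 FPKM ratio (x axis) of the 9 genes in the 3 pairs of libraries, with no point for sptl-1 against gfp(RNAi), and with lines for 95% counting intervals that leave out variation between cultures. The asm-3 interval of 1.09 to 1.69 in the left panel lies furthest from 0, and hyl-1 stands at 0.45 in the middle panel and at 0.06 in the left.

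Among the ceramide synthases, hyl-1 was higher in swsn-2.2(RNAi) and close to the control in the library labelled as ham-3(RNAi). HYL-1, HYL-2 and LAGR-1 are homologs of yeast Lag1, and HYL-1 and HYL-2 differ in the chain length of the fatty acid they attach. The gene hyl-1 (C09G4.1; chromosome IV, 8539123 to 8544412, plus strand) was at 90.2 FPKM in gfp(RNAi), 94.4 in the library labelled as ham-3(RNAi) and 123 in swsn-2.2(RNAi). Its log2 FPKM ratio to gfp(RNAi) was 0.06 (-0.01 to 0.14) in the library labelled as ham-3(RNAi) and 0.45 (0.38 to 0.52) in swsn-2.2(RNAi). Between the RNAi libraries the log2 FPKM ratio of hyl-1 was -0.39 (-0.45 to -0.32), lower in the library labelled as ham-3(RNAi). The authors' deposited table gives hyl-1 a q-value of 0.0017 in swsn-2.2(RNAi) and a p-value of 0.57 in the library labelled as ham-3(RNAi). The median gene was itself at 0.08 in swsn-2.2(RNAi), and hyl-1 centred on it was at 0.37 on the FPKM + 1 scale.

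The gene hyl-2 (K02G10.6; chromosome X, 4696754 to 4699461, minus strand) was at 40.2 FPKM in gfp(RNAi) and at 45.2 and 44.9 in the library labelled as ham-3(RNAi) and in swsn-2.2(RNAi). Both values were slightly above the control, with intervals of 0.06 to 0.28 and 0.05 to 0.27 for the log2 FPKM ratio. The authors' p-values for hyl-2, in their deposited table, are 0.27 in both comparisons. The gene lagr-1 (Y6B3B.10; chromosome I, 13724577 to 13732046, minus strand) was at 7.15, 6.78 and 7.0 FPKM in gfp(RNAi), ham-3(RNAi) and swsn-2.2(RNAi). No difference was detectable for lagr-1 at about 151, 224 and 232 inferred fragments, with intervals of -0.38 to 0.23 and -0.33 to 0.28. Of the summed ceramide synthase FPKM, hyl-1 held 65.6% in gfp(RNAi), 64.5% in the library labelled as ham-3(RNAi) and 70.4% in swsn-2.2(RNAi). The sum itself was 138, 146 and 175 FPKM in that order, highest in swsn-2.2(RNAi).

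Serine palmitoyltransferase catalyses the committed step of the pathway. Of its members here, sptl-1 could not be compared with the control and sptl-3 was level with it. The gene sptl-1 (C23H3.4; chromosome II, 51652 to 57570, plus strand) was at 114 FPKM in the library labelled as ham-3(RNAi) and 133 in swsn-2.2(RNAi) and was listed at 0 in gfp(RNAi). No fold against gfp(RNAi) is given for it. All 4 of its listed transcripts were at 0 there, and the authors' deposited table lists for it a log2 fold of 0 with p-value 1 in both comparisons, which was read as no test. The gene tre-5, a trehalase gene on the opposite strand inside the sptl-1 span, was also at 0 in gfp(RNAi), and at 5.24 and 7.60 FPKM in the others. The flanking genes outside the span were measured in all libraries: C23H3.5 was at 34.3, 31.8 and 35.3 FPKM and ascc-1 at 21.4, 20.6 and 22.8. Of 198 genes at 0 in gfp(RNAi) with at least 10 FPKM in the library labelled as ham-3(RNAi), 124 had no authors' test. Between the RNAi libraries the log2 FPKM ratio of sptl-1 was -0.22 (-0.28 to -0.16), with the lower value in the library labelled as ham-3(RNAi).

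The gene sptl-3 (T22G5.5; chromosome V, 13893325 to 13896415, plus strand) was at 47.9 FPKM in gfp(RNAi), 46.6 in the library labelled as ham-3(RNAi) and 49.1 in swsn-2.2(RNAi). Its log2 FPKM ratios to gfp(RNAi) were -0.04 (-0.14 to 0.06) and 0.03 (-0.06 to 0.13), and both intervals include 0. The sphingosine kinase gene sphk-1 (C34C6.5; chromosome II, 8699012 to 8701669, minus strand) makes the enzyme that turns sphingosine into sphingosine 1-phosphate. It was at 35.1, 33.0 and 31.2 FPKM in gfp(RNAi), ham-3(RNAi) and swsn-2.2(RNAi). Both RNAi values were below the control, with log2 FPKM ratios of -0.09 (-0.22 to 0.04) and -0.17 (-0.30 to -0.04), and the authors' deposited p-values of 0.45 and 0.11.

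Counted on the scale of log2(FPKM + 1), which understates changes of low genes, asm-3 was the member above 0 in all libraries that reached 1.5-fold from gfp(RNAi). All 9 members passed the minimum of a mean of 1 FPKM over the pair in each comparison. In the library labelled as ham-3(RNAi), 2 members were at least 1.5-fold higher, asm-3 (log2 ratio 1.17) and sptl-1, listed at 0 in gfp(RNAi), and 0 were lower. Of all 14683 genes kept there, 3.69% were that much higher and 4.01% lower. In swsn-2.2(RNAi), 1 member was higher, again the 0 of sptl-1, and 0 were lower, beside 4.14% and 2.54% of all 14713 genes. On this scale asm-3 fell short of 1.5-fold in swsn-2.2(RNAi), at a log2 ratio of 0.53. Between the RNAi libraries 1 member, asm-3 at 0.64, was at least 1.5-fold higher in the library labelled as ham-3(RNAi) and 0 were lower, beside 2.93% and 4.66% of 14738 genes. Over genes above 0 in all 3 libraries these shares were 1.63% and 2.81% in ham-3(RNAi), 2.32% and 1.38% in swsn-2.2(RNAi), and 1.36% and 3.39% between the RNAi libraries, beside 1, 0 and 1 of 8 members higher and 0 lower. Since the members were chosen with these ratios known, nothing is read from these shares.

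Among genes above 0 in all 3 libraries, the 8 members that met this had a median log2 ratio of -0.04 in the library labelled as ham-3(RNAi) and 0.00 in swsn-2.2(RNAi), with all genes at 0.03 and 0.08. The ratio of asm-3 ranked 28 from the top among 14111 such genes in the library labelled as ham-3(RNAi), 446 among 14176 in swsn-2.2(RNAi) and 148 among 14141 between the RNAi libraries. Genes near the level of asm-3, with 2 to 6 FPKM in gfp(RNAi), were 1.5-fold higher in the library labelled as ham-3(RNAi) in 2.61% of 2449 cases and lower in 4.57%. In swsn-2.2(RNAi) 3.47% of them were higher and 2.08% lower, and between the RNAi libraries 2.12% and 4.86%. The count of members near that level is 1, asm-3 itself, so nothing is read from these shares either. The authors' deposited lists of higher genes, whose largest p-value is 0.00999, hold 1 of the 9 members for ham-3(RNAi), asm-3. For swsn-2.2(RNAi) they hold 2, asm-3 and hyl-1. These lists hold 1.39% and 3.11% of the genes with an authors' p-value below 1. The lists of lower genes hold 0 members, with 2.93% and 1.86% of genes.

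**Figure D3:**
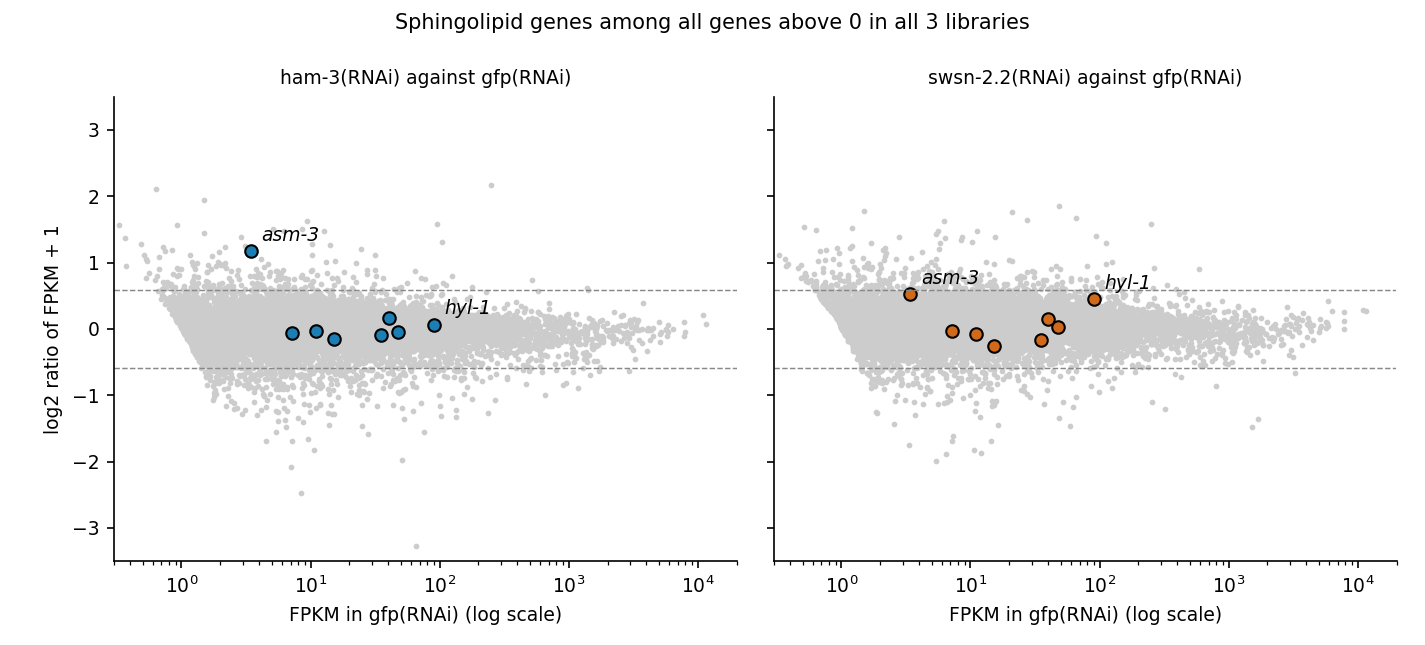
log2 ratio of FPKM + 1 (y axis) against FPKM in gfp(RNAi) (x axis, log scale) for all genes above 0 in the 3 libraries with a mean of at least 1 FPKM over the pair (grey), with 8 sphingolipid genes outlined in black, asm-3 and hyl-1 named, and 1.5-fold marked by dashed lines. In the left panel asm-3 lies at 1.17 above the line, and in the right panel asm-3 at 0.53 and hyl-1 at 0.45 lie just below it.

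The transcript tables split each gene's FPKM among its annotated transcripts, as estimated by the authors' software. For asm-3, transcript W03G1.7a carried all of the FPKM in gfp(RNAi) and in the library labelled as ham-3(RNAi), at 3.43 and 8.96. In swsn-2.2(RNAi) it carried 4.58 FPKM, and W03G1.7b, listed at 0 in the other libraries, carried 0.80, or 14.9% of the gene's FPKM. In WBcel235, W03G1.7b begins inside the second exon of W03G1.7a and shares the exons that follow, so few reads tell the transcripts apart. For W03G1.7a alone the authors' deposited table gives a log2 fold of 0.42 in swsn-2.2(RNAi) with a p-value of 0.046, and 1.39 in the library labelled as ham-3(RNAi).

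The makeup of asm-2 differed between libraries although its total was nearly level. Transcript ZK455.4.1 was at 2.98 FPKM in gfp(RNAi), 1.29 in the library labelled as ham-3(RNAi) and listed at 0 in swsn-2.2(RNAi). Transcript ZK455.4.2 went from 8.14 FPKM in gfp(RNAi) to 9.55 and 10.5 in ham-3(RNAi) and swsn-2.2(RNAi). Their 5′ ends in the files are 9 bp apart. The file coordinates cover only the 5′ part of asm-2 and WBcel235 holds 1 transcript of it. Whether the transcripts differ elsewhere, and how well reads tell them apart, is thus not known. For hyl-1, transcript C09G4.1.2, which in the files begins 48 bp upstream of C09G4.1.1, was at 20.01 and 19.7 FPKM in gfp(RNAi) and in the library labelled as ham-3(RNAi) and at 38.1 in swsn-2.2(RNAi). Transcript C09G4.1.1 was at 70.2, 74.7 and 85.2 FPKM in that order. Both hyl-1 transcripts were thus highest in swsn-2.2(RNAi). The one that begins upstream had the larger log2 fold, 0.93 against 0.28 in the authors' deposited table. Their starts are only 48 bp apart and their ends in the files coincide. How well reads tell the hyl-1 transcripts apart is thus not known, and the split between them is uncertain.

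For sptl-3, T22G5.5b was the main transcript, at 38.8 FPKM in gfp(RNAi), 32.4 in the library labelled as ham-3(RNAi) and 40.7 in swsn-2.2(RNAi). Its other measured transcript, T22G5.5a.1, held 19.0%, 30.5% and 17.1% of the gene's FPKM in that order, the largest share being in the library labelled as ham-3(RNAi). For sphk-1, C34C6.5d.2 held 49.7%, 62.6% and 49.9% of the FPKM. The short transcript C34C6.5d.1 was at 1.80 FPKM in gfp(RNAi), listed at 0 in the library labelled as ham-3(RNAi) and at 1.88 in swsn-2.2(RNAi). For sptl-1, C23H3.4a.1 held 66.9% in the library labelled as ham-3(RNAi) and 50.1% in swsn-2.2(RNAi).

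**Figure D4:**
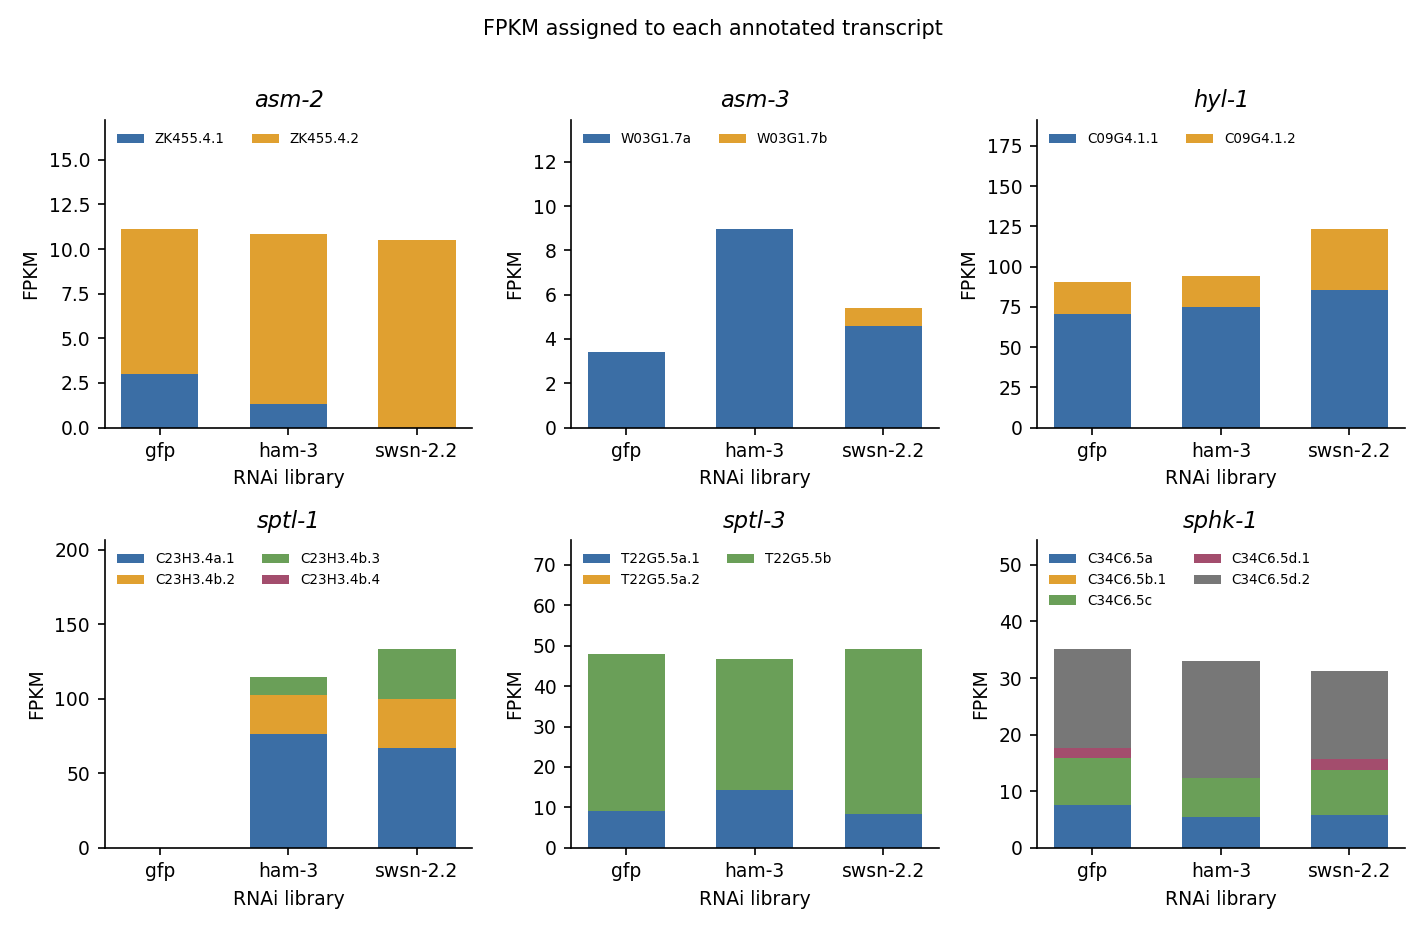
FPKM (y axis, from 0) assigned to each annotated transcript (stacked colours) of the 6 members with several listed transcripts, in the gfp, ham-3 and swsn-2.2 RNAi libraries. For asm-2 the bar height is level at 11.1, 10.8 and 10.5 FPKM while ZK455.4.1 shrinks to 0, and the asm-3 bar in ham-3(RNAi) is all W03G1.7a.

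The rest of the pathway was described with 28 further genes, listed from pathway knowledge with earlier results of these data known. Nothing is thus read from their counts beside the shares of all genes, here or below. Of the 28 genes, 24 were kept in the comparison of ham-3(RNAi) with gfp(RNAi) and 25 in that of swsn-2.2(RNAi). Of these, 1 was at least 1.5-fold higher and 0 were lower in the library labelled as ham-3(RNAi), beside 3.69% and 4.01% of all genes kept there, with a median log2 ratio of FPKM + 1 of 0.01 over the list and 0.03 over all genes. In swsn-2.2(RNAi), 1 was higher, a gene listed at 0 in gfp(RNAi), and 0 were lower, beside 4.14% and 2.54% of all genes, with a median of 0.10 over the list and 0.08 over all genes. Between the RNAi libraries 1 was higher and 3 were lower in the library labelled as ham-3(RNAi), 1 of the 3 being listed at 0 there, beside 2.93% and 4.66% of all genes, with a median of -0.06 over the list and -0.05 over all genes. The genes cgt-1, cgt-3 and acs-1, which encode ceramide glucosyltransferases and an acyl-CoA synthetase, were listed at 0 in all 3 libraries. The authors gave no test of them in either comparison, as for sptl-1. A 0 in all libraries may also be a failed estimate and does not show that a gene was not expressed.

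On the synthesis side, sptl-2, a further serine palmitoyltransferase subunit gene, was at 29.7 FPKM in gfp(RNAi), 23.6 in the library labelled as ham-3(RNAi) and 28.8 in swsn-2.2(RNAi). It was lowest in the library labelled as ham-3(RNAi), with a log2 FPKM ratio of -0.33 (-0.45 to -0.21), and stands in the authors' deposited list of lower genes with a q-value of 0.155. The sphingomyelin synthase gene sms-1 was level at 73.6, 75.01 and 76.5 FPKM, and so was the fatty acid hydroxylase gene fath-1 at 78.6, 81.2 and 84.6. The sphingomyelin synthase family gene sms-5 was at 2.43 FPKM in gfp(RNAi), 1.35 in the library labelled as ham-3(RNAi) and 2.66 in swsn-2.2(RNAi). This rests on about 44, 38 and 76 inferred fragments, with a log2 FPKM ratio of -0.98 (-1.58 to -0.40) between the RNAi libraries. In the comparison with gfp(RNAi), sms-5 stands in the authors' deposited list of lower genes for ham-3(RNAi) with a q-value of 0.156.

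The supply of branched-chain fatty acids and the breakdown genes gave the other differences. The elongase genes elo-5 and elo-6 make the monomethyl branched-chain fatty acids from which the worm's long-chain base is built. The gene elo-5 was at 192 FPKM in gfp(RNAi), 164 in the library labelled as ham-3(RNAi) and 283 in swsn-2.2(RNAi), and elo-6 was at 347, 348 and 455. Both were highest in swsn-2.2(RNAi), as was hyl-1, and the log2 FPKM ratio between the RNAi libraries was -0.79 (-0.85 to -0.73) for elo-5 and -0.39 (-0.43 to -0.35) for elo-6. The authors' deposited list of higher genes for swsn-2.2(RNAi) holds 3 of the 28 genes: elo-5 (q-value 0.00137), elo-6 (0.0729) and the ceramidase gene asah-2 (0.00912). Of the 28 genes, 22 had an authors' test there, and that list holds 3.11% of all genes tested. The gene asah-2, named after its values were seen, was at 42.9, 48.2 and 61.3 FPKM in gfp(RNAi), ham-3(RNAi) and swsn-2.2(RNAi).

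The glucocerebrosidase family gene gba-2 was at 1.22 FPKM in gfp(RNAi), 2.70 in the library labelled as ham-3(RNAi) and 1.44 in swsn-2.2(RNAi). Like asm-3 it was highest in the library labelled as ham-3(RNAi), where its log2 FPKM ratio to gfp(RNAi) was 1.15 (0.58 to 1.74) on about 34 and 119 inferred fragments. It is the 1 gene of the 28 in the authors' deposited list of higher genes for that library (q-value 0.00572), and the lower list holds 2, sptl-2 and sms-5. Of the 28 genes 23 were tested there, and these lists hold 1.39% and 2.93% of all genes tested. The saposin family gene spp-10 was at 288, 249 and 240 FPKM in gfp(RNAi), ham-3(RNAi) and swsn-2.2(RNAi), below the control in both. The sphingosine 1-phosphate lyase gene spl-1 was at 55.1, 61.4 and 61.2 FPKM, above the control in both. Among the glycosylation genes, bre-3 (104, 98.3 and 112 FPKM) and bre-4 (17.7, 17.2 and 17.0) stayed near the control. The gene bre-1 was at 108 FPKM in swsn-2.2(RNAi) and listed at 0 in both others, so no fold is given.

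**Figure D5:**
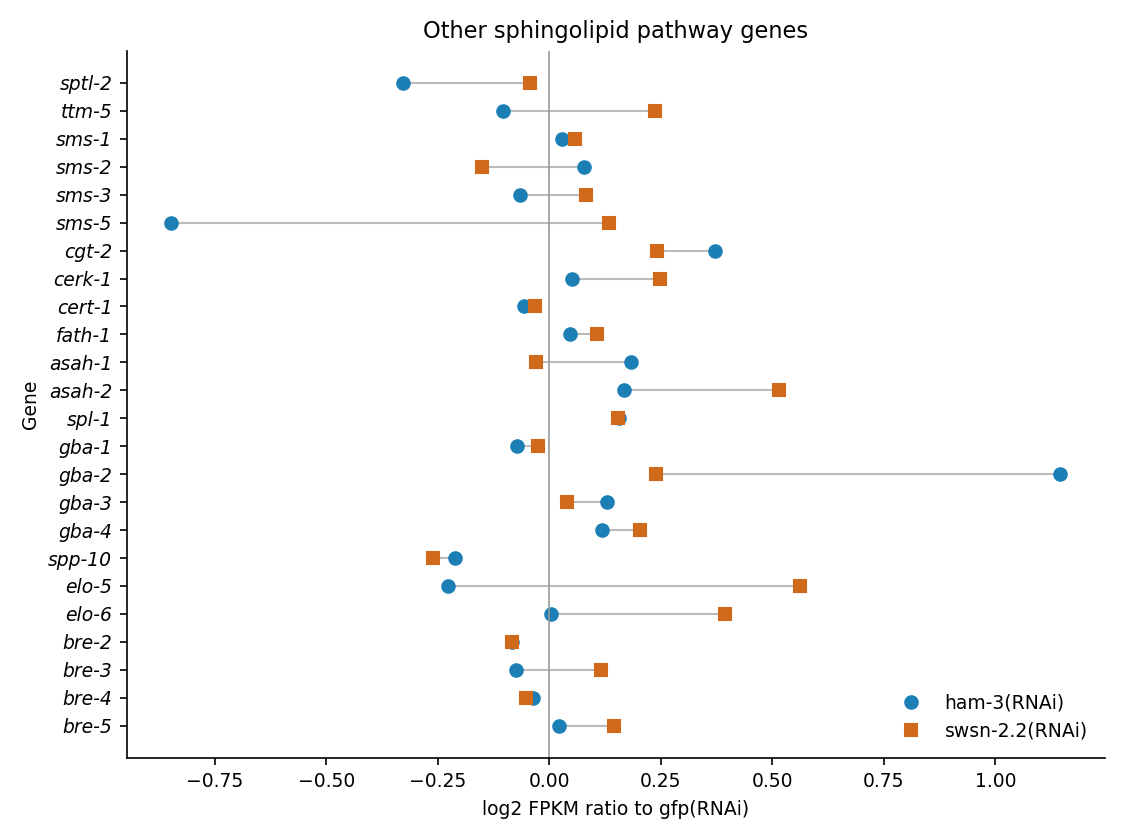
log2 FPKM ratio to gfp(RNAi) (x axis) of 24 other sphingolipid genes above 0 in all libraries, with circles for ham-3(RNAi), squares for swsn-2.2(RNAi) and a grey line joining the pair of a gene. Both ratios share the gfp(RNAi) library. The gene gba-2 stands at 1.15 in ham-3(RNAi), sms-5 is lowest there at -0.85, and elo-5 and elo-6 stand at 0.56 and 0.39 in swsn-2.2(RNAi).

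Markers of tissues and of stage were set beside these differences. Summed over 6 vitellogenin genes, which the adult intestine expresses for yolk, FPKM was 1004 in gfp(RNAi), 1329 in the library labelled as ham-3(RNAi) and 1704 in swsn-2.2(RNAi). The order of the libraries was the same for hyl-1, elo-6 and asah-2 and not for asm-3 or elo-5, and all 6 vitellogenins were above the control in both RNAi libraries. That order is not particular to these genes: sms-1 and fath-1, among others, shared it. The median gene also ran that way, at log2 ratios to gfp(RNAi) of 0.03 in ham-3(RNAi) and 0.08 in swsn-2.2(RNAi). Summed over the 6 of 7 intestine markers above 0 in all libraries, FPKM was 1318, 1278 and 1419, highest in swsn-2.2(RNAi), and the marker ges-1 was listed at 0 in both RNAi libraries. Over 4 germline markers the sums were 527, 556 and 542, and over 4 body wall muscle markers 1105, 1140 and 935, lowest in swsn-2.2(RNAi). The muscle sum was mostly unc-54 (524, 526 and 432 FPKM) and unc-15 (511, 532 and 440), while hlh-1 was highest in swsn-2.2(RNAi), at 4.86, 7.31 and 7.65. Over the 3 of 4 hypodermis markers above 0 throughout they were 280, 264 and 251, with rol-6 the largest part (249, 228 and 213 FPKM), while elt-3 was at 23.5, 26.9 and 31.2, and dpy-7 was listed at 0 in gfp(RNAi). The lysosome, where acid sphingomyelinases work in mammals, was set beside asm-3 with 6 genes, which summed to 2789, 2633 and 2718 FPKM over the 4 above 0 throughout, with cup-5 at 0 in all libraries and lmp-1 at 0 in gfp(RNAi) and swsn-2.2(RNAi). The largest part of that sum was asp-1 (1991, 1956 and 2131 FPKM), while cpl-1 was at 743, 621 and 529. The part of stage, tissue makeup or depth in the values of asm-3, hyl-1 and elo-5 was not tested.

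The genes whose pattern lay nearest to asm-3 were named by the Euclidean distance of both log2 ratios to gfp(RNAi), among 10940 genes above 0 in all 3 libraries with a mean of at least 5 FPKM. They were K10D3.8 (distance 0.027), msp-74 (0.074), F08G2.8 (0.110), T10B5.8 (0.178) and F36H2.5 (0.223). The closest, K10D3.8, was at 3.72, 9.497 and 5.90 FPKM in gfp(RNAi), ham-3(RNAi) and swsn-2.2(RNAi). The major sperm protein gene msp-74 was at 10.3, 23.6 and 14.7 FPKM, and its near-identical copies make the value of a single copy uncertain. With 3 libraries, a pattern is 3 values.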

How the data were processed

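The authors made the FPKM values with Cufflinks and compared libraries with Cuffdiff, per the submitters' processing notes. Their versions, the aligner, the build and the strandedness were not stated in the sources used here. The authors' deposited tables give a p-value and a log2 fold for each gene and transcript, and q-values in the lists of higher and lower genes. Where 1 library is at 0, the log2 fold is a placeholder in some cases (ZK455.4.1) and 0 without a test in others (sptl-1). A log2 fold of 0 without a test also occurs where both libraries are above 0. Cases are fath-1 and swsn-2.2 in ham-3(RNAi), and bre-3 in swsn-2.2(RNAi). The gene spp-10 has a log2 fold of -0.26 without a test in swsn-2.2(RNAi). The gfp(RNAi) column was identical in both gene tables, and the number of unmapped sample columns was 0. FPKM was used as scaled by the authors. Ratios were log2 of FPKM + 1 over genes with a mean of at least 1 FPKM over the pair, and log2 of FPKM for members. No test across animals is possible with 1 library per group.

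Library totals were inferred from FPKM up to 0.3 of genes with 1 transcript of at least 500 bp, with a length offset of 165 bp. Of 1826, 2216 and 2214 genes used for gfp(RNAi), ham-3(RNAi) and swsn-2.2(RNAi), 59.0%, 57.4% and 56.9% came within 0.1 of a whole number of fragments, so totals are approximate. Intervals are Clopper-Pearson at 95% on inferred fragments, for counting error only. For genes with several transcripts, fragments were summed over transcripts, as an alternative chosen once the data had been seen, like the comparison with genes of 2 to 6 FPKM. The inference of fragments, the intervals and the counts were checked on simulated data with counting error alone, for genes with 1 transcript. That check does not cover the members with several transcripts.

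Coordinates are those of Ensembl's WBcel235 annotation, matched by symbol. Of 40397 matched genes, 99.3% overlapped the coordinates in the files. Of the 28 other pathway genes, 5 were matched by RefSeq locus tag. Members and lists were chosen with earlier results of these data known. Named were all members, both targets, other pathway genes at least 1.5-fold apart in any pair, up to 2 with the highest control FPKM per step, and the 5 genes nearest to a member 1.5-fold from gfp(RNAi). Alternatives were other pseudocounts, filters and scalings, and the summed transcript table. Python 3.11.15, pandas 2.3.3, numpy 2.4.6, scipy 1.17.1 and matplotlib 3.10.9 were used.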

Additional observations from a re-analysis of the deposited data

How the results depend on the processing

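No paired analysis was possible because each group has 1 library. Over the 5 alternatives, 120 of 125 alternative ratios of members moved by no more than their counting interval reaches to either side of its middle. Of those at least 1.5-fold apart, 0 changed sign. The summed transcript table, 1 of these alternatives, gave the same member ratios as the gene table, so it adds no check. The ratio of asm-3 in ham-3(RNAi) ran from 0.73 (pseudocount of 5 FPKM) to 1.36 (pseudocount of 0.1 FPKM), and in swsn-2.2(RNAi) from 0.30 to 0.64. The ratio of hyl-1 in swsn-2.2(RNAi) was 0.35 when scaled to the upper quartile, and under a change of scaling the ratios of sptl-3 in swsn-2.2(RNAi) and of sptl-3 and lagr-1 between the RNAi libraries, near 0, changed sign, to -0.06, 0.01 and 0.03. At a pseudocount of 0.1 FPKM, 2 members were at least 1.5-fold higher in swsn-2.2(RNAi), asm-3 among them, and 1 other pathway gene was lower in ham-3(RNAi). At 5 FPKM, 0 members were higher between the RNAi libraries, and 0 other pathway genes were higher in ham-3(RNAi) against either library. Keeping only genes with a mean of 5 FPKM or more also left 0 other pathway genes higher in ham-3(RNAi) against either library, since it removes gba-2. Without genes listed at 0, 1 member was higher in ham-3(RNAi), and 0 members and 0 other pathway genes in swsn-2.2(RNAi). Low depth widens the intervals of lagr-1, sms-5 and gba-2, among others, and 1 library per group limits every comparison.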
